A study of Drosophila melanogaster with 7 samples.

Results

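GABAergic neurons of the first instar larval brain of Drosophila melanogaster were taken as the neurons that expressed Gad1 and VGAT above a limit and carried little of the genes of the other fast transmitters, and 846 of the 9353 cells in the data met this definition. A cell was used if it had over 200 and under 4500 genes, under 20% of its unique molecular identifiers (UMIs, which count each captured transcript once) from mitochondrial genes, and at least 2000 UMIs, which left 7414 cells. At least 2 of the 4 neuronal genes nSyb, Syt1, elav and brp had to be detected, which gave 6192 neurons. A GABAergic neuron then had at least 8 UMIs of Gad1 and VGAT together per 10000, with at least 2 such UMIs, and under 20 UMIs of VGlut and under 8 of ChAT and VAChT together per 10000. Mirror limits gave 751 glutamatergic neurons (VGlut at 20 or more) and 1738 cholinergic neurons (ChAT and VAChT at 8 or more). As a background for free RNA, 626 glia-gated cells were used. They showed at least 2 of 11 glial genes and fewer than 2 of the neuronal genes. In all their UMIs, the glial gene repo was found in 15.2% of them. The glial gene alrm was found in 71.2% of them, but also in 61.2% of GABAergic neurons. The progenitor genes klu and wor were found in 34.8% and 29.6% of them, against 12.8% and 8.27% of GABAergic neurons. These cells are therefore a mixed reference and not pure glia.

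The study profiled dissociated brain lobes, after removal of the ventral nerve cord, with droplet-based 3' single-cell RNA-Seq in larvae of the strain Wild type CS (Canton-S) that were starved for 4 hr on agar at 25 °C, from 11 hr after larval hatching by the labels or 12 hr by the study's methods, and in larvae of the same strain kept on food (normal condition), collected at 16 hr by the methods. Neither group carried a named transgene or mutation, and the brains of many larvae went into each suspension. The 3 starvation libraries come from 2 replicates, Starvation A and B, and the 4 normal libraries from 3 replicates, Normal A, B and C. All tests were made over these replicates and never over cells. Shares of cells and correlations over pooled cells are given as descriptions.

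GABA is the main inhibitory transmitter of the insect brain. Glutamic acid decarboxylase, encoded by Gad1, makes it from glutamate, the vesicular transporter VGAT loads it into synaptic vesicles, and receptors such as the chloride channel Rdl and the metabotropic GABA-B receptors detect it. GABA is taken up by the transporter Gat and broken down by GABA transaminase (Gabat) and succinic semialdehyde dehydrogenase (Ssadh), which returns its carbon to the mitochondrial citric acid cycle.

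Starvation A held 468 GABAergic neurons and Starvation B 75, against 63 in Normal A, 129 in Normal B and 111 in Normal C. Their median depth was 7536 and 7600 UMIs in the starvation replicates, and 4867, 7014 and 11410 UMIs in the normal replicates. GABAergic neurons made up 16.03% (95% Wilson interval 14.7 to 17.4) and 11.5% (9.29 to 14.2) of the neurons in Starvation A and B, against 9.94% (7.84 to 12.5), 10.6% (9.01 to 12.5) and 14.4% (12.1 to 17.0) in Normal A, B and C. These intervals cover counting error only, and the conditions overlapped (exact two-sided permutation test over replicates, p = 0.40, where 2 against 3 replicates cannot go below 0.20). With 2 times the Gad1 and VGAT limits the shares were 14.2% and 8.76% in starvation, against 7.73%, 9.23% and 7.89% in normal replicates. Their mean was 3.22 percentage points higher in starvation, against 2.13 with the main limits. With each cell thinned at random to 2000 UMIs, the shares were 18.4% and 11.7% in Starvation A and B. They were then 10.5%, 11.7% and 17.1% in Normal A, B and C. Cell barcodes recurred between libraries: 62 of the 846 cells had a barcode that was also found in another library, most of them between both libraries of Normal B, and 11 of them had over 3 times as many UMIs there. Over all cells, the libraries of Normal B, with 1094 and 1283 cells, shared 597 barcodes, of which 43 belonged to GABAergic neurons. Those of Starvation A shared 170. Libraries of Normal B and of Starvation A, which belong to different conditions, shared between 218 and 262 barcodes per pair. Of these, 2 to 7 per pair belonged to GABAergic neurons. Without the copies, the shares of GABAergic neurons were 16.2% and 11.5% in Starvation A and B, and 9.97%, 11.3% and 14.4% in Normal A, B and C.

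The label was checked on the defining genes, which the definition used and which are therefore only described. Gad1 was found in all 846 cells, VGAT in 81.1% and nSyb in 99.3%. The summed Gad1 and VGAT level had a median of 24.6 per 10000. The values just inside the limit were 8.03, 8.31 and 8.41 per 10000, and those just outside were 7.92, 7.89 and 7.82. Of the 858 neurons above the Gad1 and VGAT limits, 11 were left out for ChAT and VAChT and 2 for VGlut, 1 of them for both. At a common depth of 2000 UMIs per cell, VGlut was found in 21.4% of GABAergic neurons and in 22.0% of glia-gated cells. It is read as background here, with shares of 10.7% to 31.7% over the replicates of GABAergic neurons. ChAT was found in 9.34% of GABAergic neurons and in 4.63% of glia-gated cells. The limits on the levels of VGlut and ChAT are part of the definition. These shares therefore cannot show whether neurons that make GABA also carry either gene. The study saw overlap of VGlut and Gad1 in a subset of neurons by immunostaining.

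GABAergic neurons differed from both other classes in the enzymes that break GABA down and in a set of transcription factors. UMIs were summed per replicate and class, and tested with edgeR's quasi-likelihood test with the replicate as a block and Benjamini-Hochberg adjustment at 0.05. All adjusted p-values below are from edgeR unless DESeq2 is named, and levels are in TMM-scaled CPM, which is the UMI count of a gene relative to all UMIs of the sum. Against glutamatergic neurons, 452 of 6237 genes were called (7.25%), 271 higher in GABAergic neurons (4.35%) and 181 lower (2.9%). Against cholinergic neurons, 439 were called (7.04%), 220 higher (3.53%) and 219 lower (3.51%). In both comparisons together, 105 genes were higher (1.68%) and 63 lower (1.01%). Genes of the definition are included in these counts, 4 in each comparison, and without them 268 genes were higher and 180 lower against glutamatergic, and 218 higher and 217 lower against cholinergic neurons. Gad1 and VGAT are among the 105, which leaves 103 genes. Of these, 83 were higher in all 5 replicates in both comparisons, and 52 of the 63 were lower in all 5. The 2 comparisons share the GABAergic sums. Without Starvation A, the replicate with most cells, 137 genes were higher and 94 lower against glutamatergic, and 143 higher and 125 lower against cholinergic neurons. Outside the definition, 49 were then higher and 30 lower in both. Without all cells whose barcode recurred in another library, an alternative chosen after seeing the data, 342 and 363 genes were called, and 77 were higher and 48 lower in both, of which 71 and 44 are among the 103 and the 63.

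**Figure D1:**
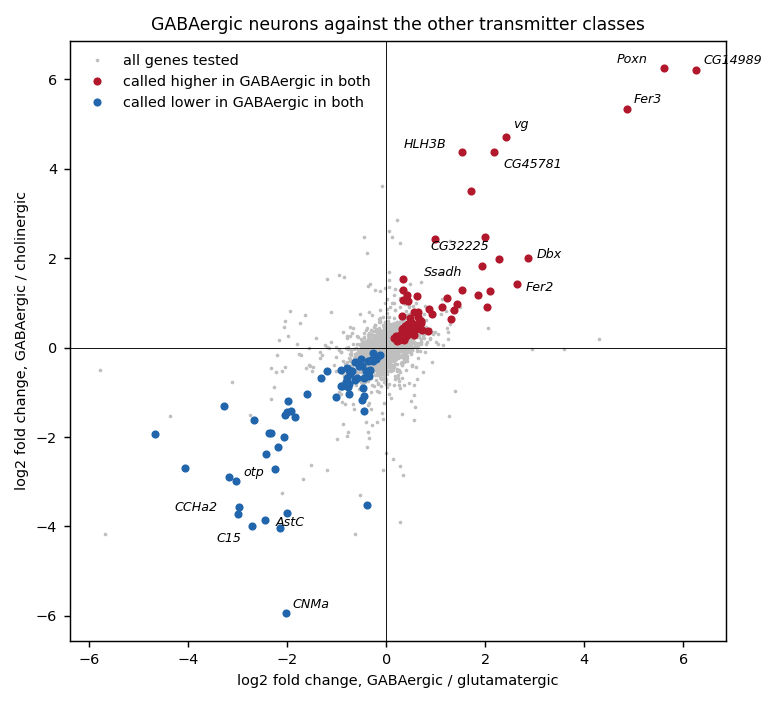
Log2 fold change of each gene in GABAergic against glutamatergic neurons (horizontal axis) and against cholinergic neurons (vertical axis), without the genes of the definition. The 103 genes called higher in both are in red and the 63 called lower in both are in blue. CG14989, Poxn and Fer3 stand farthest to the upper right, and CNMa lowest.

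Both enzymes of GABA breakdown were higher in GABAergic neurons. Ssadh, at 2000 UMIs per cell, was found in 29.0% of GABAergic, 12.0% of glutamatergic, 10.5% of cholinergic and 26.2% of glia-gated cells. It was at 198 and 195 CPM in GABAergic neurons of Starvation A and B and at 214, 172 and 198 CPM in those of Normal A, B and C. In glutamatergic neurons its level ran from 38.0 to 62.0 CPM over the 5 replicates, and in cholinergic neurons from 42.8 to 68.0 CPM, so no replicate overlapped. The log2 fold change was 1.93 ± 0.11 (SE) against glutamatergic neurons (adjusted p = 1.4e-09) and 1.82 ± 0.09 against cholinergic neurons (adjusted p = 2.1e-10). Gabat was found in 58.3% of GABAergic, 38.1% of glutamatergic, 39.3% of cholinergic and 47.1% of glia-gated cells. It averaged 483 ± 24.6 CPM in GABAergic neurons, against 225 ± 58.0 CPM in glutamatergic and 266 ± 56.9 CPM in cholinergic neurons (SD, n = 5 replicates each). Its log2 fold change was 1.12 ± 0.10 (adjusted p = 5.7e-07) and 0.92 ± 0.09 (adjusted p = 1.3e-06). The enzyme sgll, which in flies makes pyridoxal phosphate, a cofactor of decarboxylases and transaminases, averaged 42.02 ± 9.09 CPM in GABAergic neurons, against 15.7 ± 1.88 CPM in glutamatergic and 18.7 ± 2.06 CPM in cholinergic neurons. Its log2 fold change was 1.53 ± 0.15 and 1.28 ± 0.12 (adjusted p = 5.1e-06 and 1.4e-06).

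The other genes of GABA signalling differed little. Of 17 tested genes of this list, 4 were higher and 0 lower than in glutamatergic neurons (all genes 4.35% and 2.9%). The median log2 fold change was 0.13 against -0.01 over all genes. Against cholinergic neurons 1 was higher, Gabat, and 0 were lower (all genes 3.53% and 3.51%), with a median of -0.01 (all genes 0.00). Besides Gabat, those higher than in glutamatergic neurons were the GABA receptor channel Rdl (log2 fold change 0.23 ± 0.05, adjusted p = 0.0073), the chloride exporter kcc (0.35 ± 0.07, adjusted p = 0.0035) and the glutamine synthetase Gs1 (0.26 ± 0.07, adjusted p = 0.034). The receptor subunits Lcch3, GABA-B-R1, GABA-B-R2 and GABA-B-R3 passed the test in neither comparison. Rdl averaged 2879 ± 209 CPM in GABAergic, 2437 ± 306 CPM in glutamatergic and 3135 ± 513 CPM in cholinergic neurons, with overlapping ranges. The transporter Gat, a gene of glia in the fly brain, was at 165 and 33.6 CPM in the GABAergic sums of Starvation A and B and at 688, 108 and 132 CPM in those of Normal A, B and C. Glial marker genes moved with it: their summed level over 11 genes was 648 and 273 CPM in these starvation replicates and 1078, 530 and 416 CPM in the normal replicates. Their part in the Gat level was not tested.

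**Figure D2:**
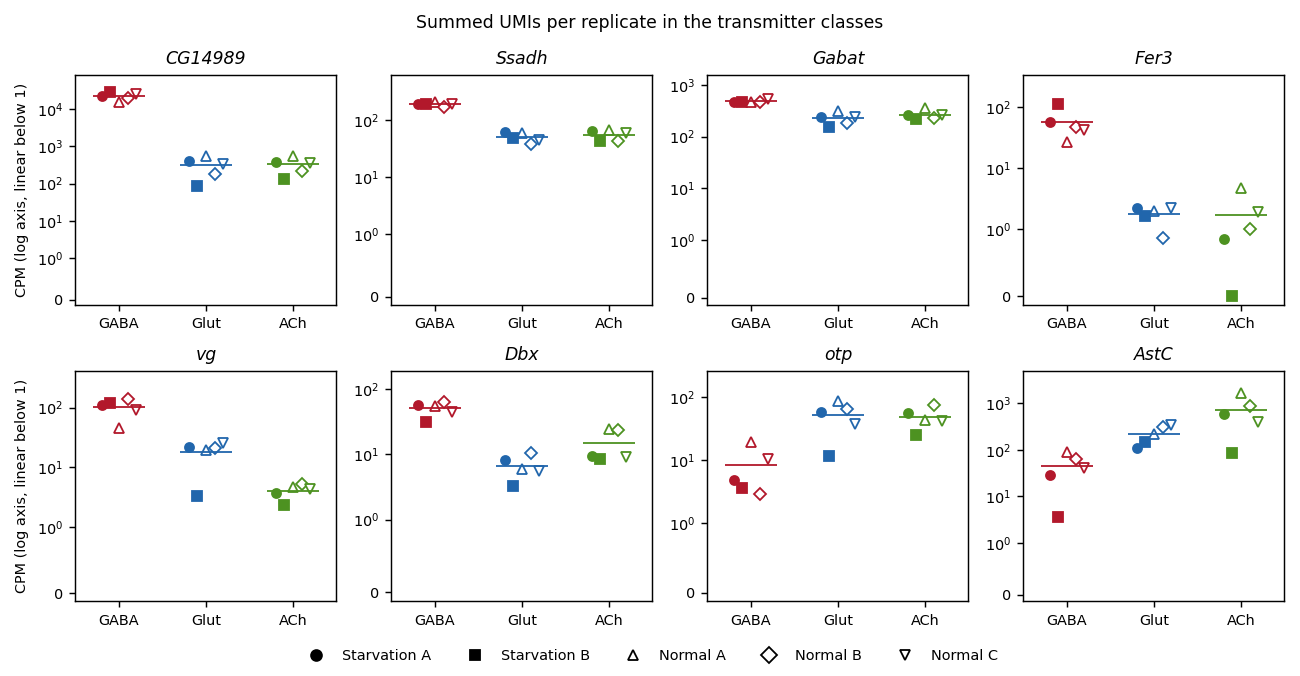
Levels of 8 genes in CPM (log axis, linear below 1) in GABAergic (GABA), glutamatergic (Glut) and cholinergic (ACh) neurons. Each point is the UMI sum of 1 replicate (filled, starvation; open, normal) and each line the mean of 5 replicates. Ssadh, Gabat, Fer3, vg and Dbx were higher in all 5 GABAergic sums, and otp and AstC lower on average.

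CG14989, a gene with no named function in the files, showed the largest difference from both classes among the genes named by a fixed rule. It was at 22122 and 27984 CPM in GABAergic neurons of Starvation A and B and at 15550, 19423 and 25017 CPM in those of Normal A, B and C, against 86.5 to 556 CPM in glutamatergic and 130 to 561 CPM in cholinergic neurons. The log2 fold change was 6.26 ± 0.33 (adjusted p = 8.7e-10) and 6.218 ± 0.32 (adjusted p = 1.8e-10). At 2000 UMIs per cell it was found in 845 GABAergic neurons (99.9%), and in 45.1% of glutamatergic, 45.6% of cholinergic and 46.0% of glia-gated cells. These near-equal shares are read as background. In the Ensembl annotation of assembly BDGP6 it lies on chromosome 3L from 4087581 to 4092706 on the plus strand and overlaps the start of Gad1, which runs on the minus strand from 4074077 to 4088744. Whether part of its count comes from reads of the Gad1 locus was not tested, so its difference is not taken as independent of the definition.

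Transcription factors formed the largest group among the rule-named genes. Fer3, Fer2, HLH3B and HLH4C encode basic helix-loop-helix factors, Dbx a homeobox factor and vg (vestigial) a transcription cofactor known from wing development. Fer3 was at 55.5 and 113 CPM in GABAergic neurons of Starvation A and B and at 26.5, 46.9 and 42.5 CPM in those of Normal A, B and C, and did not exceed 2.21 CPM in glutamatergic or 4.72 CPM in cholinergic neurons. Its log2 fold change was 4.86 ± 0.38 (adjusted p = 2.5e-07) and 5.35 ± 0.32 (adjusted p = 1.8e-09). vg was at 112 and 119 CPM in the starvation replicates and at 45.7, 138 and 91.3 CPM in the normal replicates, against 3.26 to 25.4 CPM in glutamatergic and 2.29 to 5.31 CPM in cholinergic neurons. The GABAergic range lay above both others for each gene. Dbx averaged 50.5 ± 12.4 CPM, against 6.64 ± 2.71 CPM in glutamatergic and 14.96 ± 8.33 CPM in cholinergic neurons (log2 fold change 2.86 ± 0.24 and 2.00 ± 0.18). HLH3B differed strongly from cholinergic neurons (4.38 ± 0.48, adjusted p = 6.1e-06) and less from glutamatergic neurons (1.52 ± 0.40, adjusted p = 0.026). That against glutamatergic neurons was lost without Normal A, B or C (adjusted p between 0.0521 and 0.105). HLH4C ranged from 3.83 to 99.1 CPM over the GABAergic sums, and its call against glutamatergic neurons was lost without Starvation A (adjusted p = 0.054), as was that against cholinergic neurons without Starvation B (adjusted p = 0.062).

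Poxn, a paired-box factor, lay under the level limit for rule-named genes and was picked from the list of identity factors after its values were seen. It averaged 39.7 ± 19.6 CPM in GABAergic neurons, against 0.43 ± 0.61 CPM in glutamatergic and 0.42 ± 0.42 CPM in cholinergic neurons. The log2 fold change was 5.60 ± 0.36 (adjusted p = 1.4e-08) and 6.26 ± 0.31 (adjusted p = 1.0e-10). Of 94 tested identity factors, 12 were higher and 26 lower than in glutamatergic neurons (all genes 4.35% and 2.9%), with a median log2 fold change of -0.12. Against cholinergic neurons 20 were higher and 24 lower (all genes 3.53% and 3.51%), with a median of -0.09. In both comparisons 7 were higher (Poxn, vg, bsh, Fer3, hth, Fer2 and Dbx) and 15 lower. Among the lower ones, otp averaged 8.17 CPM in GABAergic neurons, against 51.3 CPM in glutamatergic and 47.5 CPM in cholinergic neurons (log2 fold change -3.04 ± 0.32 and -2.99 ± 0.30). The homeobox factors C15 and Drgx and the forkhead factor fd102C were also lower in both. Lmx1a, with 57.1 CPM in GABAergic neurons, was higher than in cholinergic neurons (11.1 CPM, log2 fold change 2.48 ± 0.15, adjusted p = 1.9e-09) and lower than in glutamatergic neurons (76.5 CPM, -0.44 ± 0.13, adjusted p = 0.041).

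CG45781, CG32225 and CG10147 were also higher in both. CG32225 averaged 289 ± 58.1 CPM in GABAergic, 62.5 ± 29.6 CPM in glutamatergic and 76.2 ± 23.1 CPM in cholinergic neurons (log2 fold change 2.28 ± 0.11 and 1.99 ± 0.09), and CG10147 averaged 37.5 ± 4.09, 21.1 ± 9.56 and 7.56 ± 3.29 CPM (0.99 ± 0.20 and 2.42 ± 0.20). CG45781, listed as DIP-lambda by RefSeq, belongs by that name to the Dpr-interacting immunoglobulin proteins of neuronal surfaces. It was at 147 and 195 CPM in Starvation A and B and at 190, 122 and 232 CPM in Normal A, B and C, against 19.8 to 75.1 CPM in glutamatergic and 4.25 to 10.4 CPM in cholinergic neurons. The family members DIP-beta (log2 fold change 0.64 and 0.81) and DIP-delta (0.63 and 0.70), were higher in both, while DIP-eta was lower in both (-2.14 ± 0.58, adjusted p = 0.031, and -4.03 ± 0.41, adjusted p = 2.6e-06). The call of DIP-eta against glutamatergic neurons was lost without Starvation A (adjusted p = 0.316) or Normal B (adjusted p = 0.105), and without barcodes found in another library (adjusted p = 0.072). Of 42 tested genes of cell adhesion and wiring, 9 were higher and 3 lower than in glutamatergic neurons (all genes 4.35% and 2.9%). Against cholinergic neurons 6 were higher and 6 lower (all genes 3.53% and 3.51%).

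Several receptors for acetylcholine were slightly higher in GABAergic neurons. Acetylcholine is the main excitatory transmitter of the fly brain. Of 14 tested genes of this list, 6 were higher and 0 lower than in glutamatergic neurons (all genes 4.35% and 2.9%), with a median log2 fold change of 0.19. Against cholinergic neurons 4 were higher and 2 lower (all genes 3.53% and 3.51%), with a median of 0.15. The nicotinic subunits nAChRalpha7 (log2 fold change 0.48 and 0.45), nAChRalpha2 (0.37 and 0.35) and nAChRbeta1 (0.22 and 0.19) were higher in both. The acetylcholine esterase Ace, at 232 CPM in GABAergic and 544 CPM in cholinergic neurons, was lower than in the cholinergic class (-1.24, adjusted p = 7.5e-08). Among monoamine receptors, Octalpha2R was higher in both (0.48 ± 0.13 and 0.67 ± 0.12) and the octopamine receptor Oamb lower in both (-0.60 and -0.67). The SNARE protein gene Snap25 (0.36 and 0.21) and the sodium pump subunit nrv3 (0.36 and 0.19) were higher in both.

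Many genes of energy metabolism were higher than in glutamatergic neurons, by small amounts, and fewer were higher than in cholinergic neurons. Of 12 tested glycolysis genes, 10 were higher and 0 lower than in glutamatergic neurons (all genes 4.35% and 2.9%), with a median log2 fold change of 0.23. Against cholinergic neurons 4 were higher and 1 lower (all genes 3.53% and 3.51%), with a median of 0.09. The one lower gene was Ldh, lactate dehydrogenase, at 1788 CPM in GABAergic and 2431 CPM in cholinergic neurons (-0.43 ± 0.04, adjusted p = 3.9e-07). Of 14 tested mitochondrially encoded genes, 5 were higher and 0 lower in each comparison (medians 0.16 and 0.18). Over all 37 such genes, the summed level in Starvation A and B was 53346 and 62790 CPM in GABAergic neurons. In glutamatergic neurons it was 45172 and 51138 CPM there. In Normal A, B and C it was 52448, 48932 and 37496 CPM in GABAergic neurons, against 54953, 49112 and 31807 CPM in glutamatergic neurons. Nuclear genes of the respiratory chain, a group picked by gene name after their values were seen, gave 44 of 66 higher than in glutamatergic and 13 of 66 higher than in cholinergic neurons, and 0 lower in either. The glutamatergic sums carried more of other programs in most replicates. Of 7 tested muscle genes 5, and of 5 genes of undifferentiated neurons 4, were lower in GABAergic than in glutamatergic neurons. The summed muscle level ran from 595 to 823 CPM in GABAergic and from 632 to 1239 CPM in glutamatergic neurons, and that of undifferentiated neurons from 767 to 1419 CPM and from 703 to 1968 CPM. In Starvation A the muscle level was 659 CPM in GABAergic and 1239 CPM in glutamatergic neurons, and in Starvation B 803 and 749 CPM. In Normal A, B and C it was 823, 595 and 743 CPM, against 835, 632 and 843 CPM. The undifferentiated level was 767 and 703 CPM in Normal C, and higher in glutamatergic neurons in the other replicates. The part of these programs in the differences from glutamatergic neurons was not tested. Against cholinergic neurons none of these muscle and undifferentiated genes passed the test.

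Genes of monoamine neurons were lower than in glutamatergic neurons. Of 10 tested genes of monoamine synthesis and transport, 0 were higher and 6 lower than in glutamatergic neurons (median log2 fold change -1.43): the vesicular transporter Vmat, ple, Ddc, Trh, Tdc2 and DAT. Vmat averaged 122 ± 70.8 CPM in GABAergic, 468 ± 103 CPM in glutamatergic and 86.4 ± 44.6 CPM in cholinergic neurons. Against cholinergic neurons only prt, which encodes another vesicular transporter, was lower (-2.49, adjusted p = 0.00013). The study reports prt as enriched in Kenyon cells of the mushroom body, which appeared cholinergic there. Of 8 tested Kenyon cell genes, 1 was higher and 2 lower than in cholinergic neurons (all genes 3.53% and 3.51%), with a median of -0.36. The part of Kenyon cells in the differences from cholinergic neurons was not tested. At 2000 UMIs per cell Vmat was found in 13.4% of GABAergic neurons and 12.1% of glia-gated cells. Before thinning these shares were 38.3% and 31.2%, at median depths of 8003 and 5175 UMIs. The pooled share is thus close to background, though single cells held up to 25 UMIs. By replicate it was 12.6% and 9.33% in Starvation A and B, and 31.7%, 13.2% and 9.01% in Normal A, B and C. Of 34 tested neuropeptides, 0 were higher and 7 lower than in glutamatergic neurons. Against cholinergic neurons 2 were higher and 7 lower. Over all genes, 4.35% were higher and 2.9% lower than in glutamatergic neurons, and 3.53% and 3.51% than in cholinergic neurons. AstC, CCHa2, CNMa and Tk were lower in both.

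Nplp1, the precursor of several peptides, was shared with glutamatergic neurons. It averaged 368 ± 172 CPM in GABAergic and 371 ± 101 CPM in glutamatergic neurons, against 30.6 ± 7.90 CPM in cholinergic neurons (log2 fold change 3.62 ± 0.23, adjusted p = 3.1e-09). It was found in 30.0% of GABAergic neurons at 2000 UMIs, in 5.98% of cholinergic neurons and in 3.04% of glia-gated cells. Proc, or proctolin, averaged 261 CPM in GABAergic neurons, below the 579 CPM of glutamatergic and above the 97.3 CPM of cholinergic neurons (-1.19, adjusted p = 0.0083, and 1.54, adjusted p = 0.0016). The insulin-like peptide Ilp2, made by a few neurosecretory cells, was at 288, 289 and 285 CPM in the 3 classes and in 29.3% of GABAergic and 28.0% of glia-gated cells, which is background.

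Among the factors higher in both comparisons, hth was found in 67.8% of GABAergic neurons at 2000 UMIs. It was also found in 55.1% of glutamatergic, 57.6% of cholinergic and 40.9% of glia-gated cells. The other genes given here, which are factors and CG45781, were each found in a minority of GABAergic neurons. At 2000 UMIs, vg was found in 13.6% of GABAergic neurons, against 2.66% of glutamatergic, 0.52% of cholinergic and 0.96% of glia-gated cells. Over the replicates its share was 13.7% and 12.0% in Starvation A and B and 14.3%, 14.7% and 12.6% in Normal A, B and C. The shares of Poxn, Fer3 and bsh varied more. That of Poxn was 3.63% and 2.67% in Starvation A and B, and 11.1%, 12.4% and 3.60% in Normal A, B and C. That of Fer3 ran from 4.50% to 13.3% and that of bsh from 0.78% to 6.31%. The shares that follow are over all cells. CG45781 was found in 12.4% of GABAergic neurons and 1.76% of glia-gated cells, Fer2 in 9.93% and 0.96%, Dbx in 8.04% and 2.40%, Fer3 in 6.86% and 0 of 626 (which allows up to 0.479%), HLH3B in 6.38% and 0.16%, Poxn in 5.44% and 0 of 626 (same limit), and bsh in 2.36% and 0.32%. At least 1 of these 8 genes, a set without hth that was chosen after their values were seen, was found in 420 GABAergic neurons (49.6%). At least 2 were found in 120 (14.2%). In glutamatergic, cholinergic and glia-gated cells at least 1 was found in 12.5%, 8.57% and 6.23%, a difference that the choice of the genes fixed. The share with at least 1 was 48.5% and 49.3% in Starvation A and B and 49.2%, 53.5% and 50.5% in Normal A, B and C. Some pairs were found in the same cells: of 46 cells with Poxn, 39 had Lim1 (84.8%), which was found in 256 of all 846, and 18 had HLH3B, which was found in 54. Of 68 cells with Dbx, 25 had Fer2, and of 115 cells with vg, 50 had bi. The correlations of log counts for these pairs were 0.26 to 0.30 over 846 cells of 5 replicates, and are given as a description.

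Among 3574 genes found in 5% to 60% of GABAergic neurons at 2000 UMIs, those with the highest variance relative to the mean (the lowest Fano factor over the replicates, median gene 0.91) were heph (7.34), which encodes an RNA-binding protein, the neuropeptide Dh31 (7.33), CG6006 (5.21), the adhesion protein Fas2 (4.16), the neuropeptide sNPF (3.77) and the zinc finger factor zld (3.73). The POU factor vvl (3.01), the T-box factor bi (2.93), trv, CG15537, mspo, CG45781, the gap junction gene shakB, CG1402 and CG13739 followed. Dh31 was found in 19.0% of GABAergic neurons, with up to 39 of 2000 UMIs in a cell, and in 8.15% of glia-gated cells. sNPF was found in 16.1%, with up to 34 UMIs, and in 4.95% of glia-gated cells. Neither differed from the other classes by the test: the log2 fold change of Dh31 was 0.13 and -0.03, and that of sNPF 0.08 and 0.08. shakB was found in 43.3% of GABAergic, 41.4% of glutamatergic, 34.1% of cholinergic and 4.47% of glia-gated cells.

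**Figure D3:**
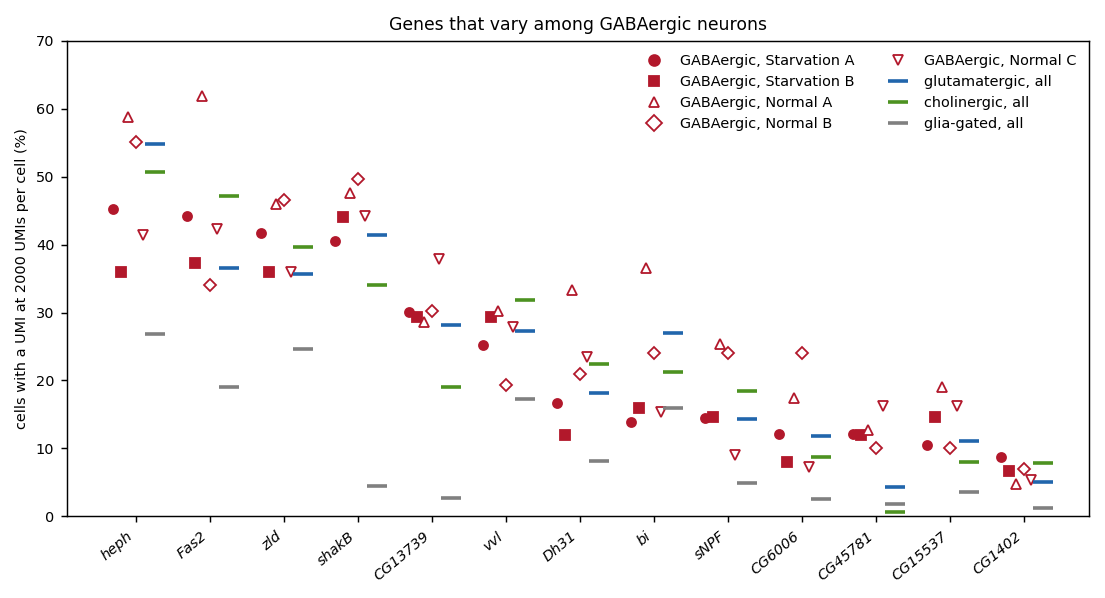
Share of cells with a UMI at 2000 UMIs per cell for 13 of the 15 genes that vary most among GABAergic neurons. Points are replicates of GABAergic neurons (filled, starvation; open, normal), and dashes are all glutamatergic, cholinergic and glia-gated cells. CG45781 sits between 10.1% and 16.2% in GABAergic neurons, above all 3 dashes, while Dh31 and sNPF overlap the other neurons.

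No gene passed the test between starved and normal GABAergic neurons. Of 6119 genes, edgeR called 0 (0.0%) after adjustment, 403 had an unadjusted p under 0.05 (6.59%), and DESeq2 called 10 higher and 15 lower. The lowest adjusted p in edgeR was 0.096, for LTV1. With the 7 libraries as separate samples 41 genes were called, a fit that counts libraries of 1 replicate as independent. A batch term for earlier libraries (in both deposited aggregations of their condition) against later ones (in the final aggregation only) gave 8. Without Normal B 7 genes were called and without Starvation B 4. The counts were 0 without the barcode copies and without all shared barcodes. Genes whose starvation replicates all lay above the normal ones made up 11.6% of the genes tested, and those below 9.12%.

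The genes called both by DESeq2 and with 7 libraries numbered 21, and were chosen after their values were seen. Of these, 10 were higher and 11 lower. Their signs and their separation between conditions follow in large part from that choice. LTV1, a ribosome assembly factor, was at 237 and 198 CPM in Starvation A and B, against 57.7, 70.8 and 62.5 CPM in Normal A, B and C (log2 fold change 1.75 ± 0.24, adjusted p = 0.096). Its log2 difference was 1.87 within the earlier libraries (Starvation A against Normal A and B) and 1.65 within the later ones (Starvation B against Normal C). REPTOR-BP, partner of a transcription factor that acts when the kinase TORC1 is low, was at 408 and 384 CPM, against 176, 146 and 143 CPM in the normal replicates (1.34 ± 0.23, adjusted p = 0.13). The insulin receptor InR was at 399 and 496 CPM, against 221, 217 and 199 CPM (1.05 ± 0.23, adjusted p = 0.295). The starvation and normal values of these genes did not overlap. The same held for hoip, a protein of the spliceosome and small nucleolar particles, at 42.3 and 56.6 CPM against 154, 171 and 288 CPM (-2.12 ± 0.33, adjusted p = 0.13), and for Pdcd4, at 1100 and 1120 CPM against 423, 499 and 542 CPM (1.16 ± 0.22, adjusted p = 0.19).

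**Figure D4:**
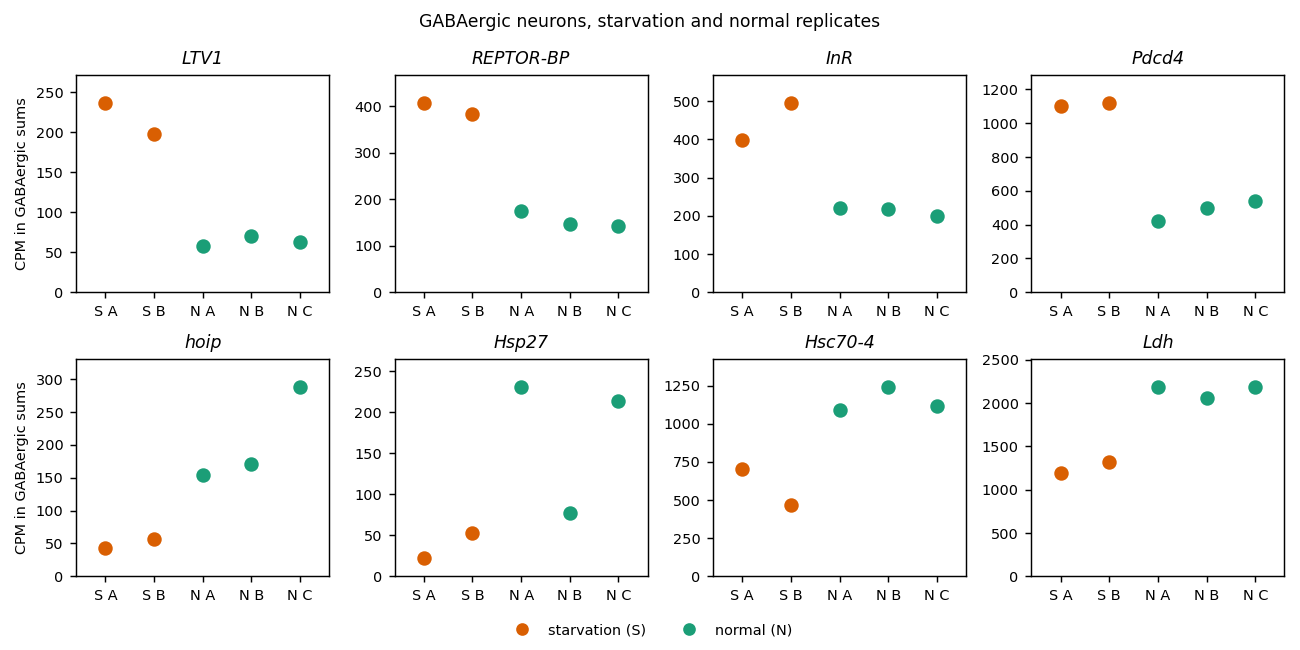
CPM of 8 genes in the GABAergic sums of each starvation replicate (S A, S B) and normal replicate (N A, N B, N C). The starvation and normal points of all 8 genes do not overlap, and none passed the edgeR test after adjustment.

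Of the gene lists, 0 members were called in any. Over all genes tested, 3.24% were higher and 3.35% lower at an unadjusted p under 0.05. REPTOR and FOXO are factors that act when nutrients are low, and in their list, with TORC1, 9 of 23 tested genes were higher and 1 lower at an unadjusted p under 0.05 (median log2 fold change 0.46, all genes 0.01). Heat shock genes gave 0 higher and 11 lower of 17 (median -0.71), with a summed level over 25 genes of 2326 and 3285 CPM in the starvation replicates and 5421, 4235 and 5895 CPM in the normal ones. Ribosome biogenesis gave 1 higher and 8 lower of 26 (median -0.62), and activity-regulated genes 5 higher and 0 lower of 16 (median 0.63). Of the 5 markers of undifferentiated neurons 3 were higher and 0 lower (median 0.73), among them unk and Thor, which the TORC1, REPTOR and FOXO list also holds. The part of such cells in the starvation differences was not tested. Identity factors gave 14 higher and 4 lower of 85 (median 0.01), with Scr and pb among those higher and Optix among those lower. GABA signalling gave 0 and 0 of 16 (median -0.08). Neuropeptides gave 0 higher and 9 lower of 32 (median -0.57), but these include Ilp5, Pdf and Ptth, and Ilp2 stood at the background level given above, so their counts are not read as levels of GABAergic neurons.

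The starvation difference in GABAergic neurons was compared with that of the other 2 classes in a test of the difference itself. No gene of 6759 passed (0.0%), 352 had an unadjusted p under 0.05 (5.21%), and DESeq2 called 1. The smallest p-values belonged to Octalpha2R (-0.74 ± 0.13, adjusted p = 0.21), CG1402 (1.36 ± 0.26, adjusted p = 0.21) and NPF (2.08 ± 0.41, adjusted p = 0.22). At an unadjusted p under 0.05, the starvation difference was higher in GABAergic neurons for 20 of 67 nuclear genes of the respiratory chain. It was also higher for 6 of 12 glycolysis genes and 7 of 15 mitochondrially encoded genes. In these lists 0, 0 and 1 were lower, and over all 6759 genes 185 were higher and 167 lower.

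A larger share of GABAergic neurons in the starvation replicates carried Hox transcripts, which mark regions along the body axis. The 8 Hox genes were grouped after their values were seen, so no test is given. A UMI of any of them was found at 2000 UMIs in 165 of 468 GABAergic neurons of Starvation A (35.3%, 95% Wilson interval 31.1 to 39.7) and in 23 of 75 of Starvation B (30.7%, 21.4 to 41.8), against 9 of 63 in Normal A (14.3%, 7.70 to 25.0), 9 of 129 in Normal B (6.98%, 3.71 to 12.7) and 22 of 111 in Normal C (19.8%, 13.5 to 28.2). Without cells whose barcode recurred, these shares were 34.8% and 30.7% in the starvation replicates and 14.3%, 6.41% and 19.8% in the normal ones. The share in glia-gated cells was 6.39%. In glutamatergic neurons it was 21.1% and 11.6% in the starvation replicates and 10.2%, 3.66% and 10.4% in the normal ones, and in cholinergic neurons 22.2% and 10.4% in the starvation replicates and 12.7%, 3.68% and 8.38% in the normal ones. Scr, one of them, was at 88.1 and 56.6 CPM in GABAergic neurons of Starvation A and B, against 9.62, 2.87 and 28.0 CPM in Normal A, B and C (2.33 ± 0.57, adjusted p = 0.35). The part of the cells' origin in the starvation differences was not tested. In summed cells, a different mix of GABAergic neurons and a different level per cell cannot be told apart.

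**Figure D5:**
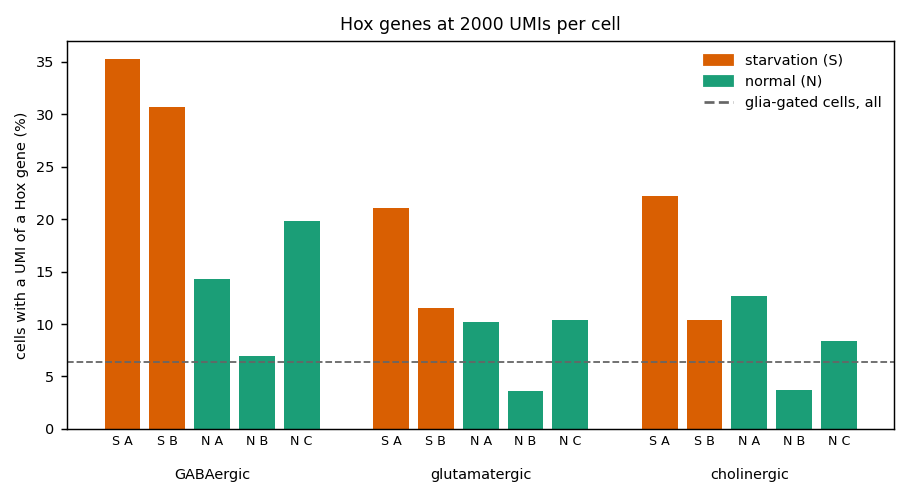
Share of cells with a UMI of any of 8 Hox genes at 2000 UMIs per cell, by class and replicate (S, starvation; N, normal), with the share of glia-gated cells as a dashed line. Both starvation bars of the GABAergic class, at 35.3% and 30.7%, lie above its normal bars, at 6.98% to 19.8%.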

How the data were processed

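The authors obtained UMI tables with Cell Ranger and a FlyBase annotation, and deposited raw counts of called cells, for 7 libraries and aggregated by condition. Entries of both kinds of table were compared and 0 differed. Depth was 5359444 to 25232852 UMIs per library. The labels do not name the experiments: libraries were linked to replicates through the number of cells and the median genes and UMIs listed for each experiment, so this grouping is inferred. The methods speak of 3 normal and 2 starvation biological replicates. The p-values of the starvation test measure the spread between the replicates of a condition. Those of the tests between classes, with the replicate as a block, measure how class differences vary from replicate to replicate.

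UMIs were summed per replicate and class, normalized by TMM, filtered with filterByExpr and tested with edgeR 4.0.16 (R 4.3.3), with DESeq2 1.42.0 as an alternative. SEs are of log2 fold changes. Cells were thinned to 2000 UMIs without replacement for shares of cells. Scrublet (scanpy 1.11.5) called 41 of 8696 cells (0.471%), and whether its limit found the doublets was not tested. No doublets were removed, and an alternative leaves out the 5% highest scores. Genes of the definition stay in the fits and their counts, and are only described. Class genes were named by a rule: up to 12 higher and 8 lower in both comparisons, ranked on the smaller of both log2 fold changes, where the mean log2 CPM exceeded 4. Called list members, the GABA and monoamine lists and the 15 most variable genes were added. The rule for starvation and for the difference between classes named no gene. The tests were checked on simulated data. The members and lists were chosen with earlier results of these data known. Wilson intervals cover counting error only. The labels and the methods differ on the kit version and on the hour at which starvation began. Gene positions come from the Ensembl annotation of the same assembly.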

Additional observations from a re-analysis of the deposited data

How the results depend on the processing

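The count of genes called between starved and normal GABAergic neurons was 0 with DESeq2 size factors, the stricter gate, and without barcode copies, shared barcodes or the highest doublet scores. It was 25 with DESeq2, 102 without a filter on low counts, 41 with 7 libraries, 14 at 2000 UMIs per cell and 8 with batch as a term, and 0 to 7 with a replicate left out (7 without Normal B, 4 without Starvation B). The lone sample left in a condition is then assumed to vary like the others. The label numbers did not pair the libraries (correlations of -0.10 to 0.02 between same-numbered ones), and a replicate block over them gave 62. For the difference between classes the count was 1 with DESeq2, 52 without a filter, 2 with 7 libraries and 0 to 1 with a replicate left out.

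Against glutamatergic neurons 452 genes were called, 212 at 2000 UMIs per cell, where fewer genes were tested, 55 with no replicate block and 231 to 430 with a replicate left out. Against cholinergic neurons 439 were called, 200 with the stricter gate, 269 at 2000 UMIs, 103 with no replicate block and 268 to 451 with a replicate left out. The causes were not tested. Of 290 values of the 20 named class genes under alternatives, 23 lost the call against glutamatergic and 5 against cholinergic neurons, and 0 reversed. The share of GABAergic neurons was 2.13 percentage points higher in starvation, and -0.12 to 4.39 with a replicate left out.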
